A study of Mus musculus with 46 samples.

Results

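Interferon-stimulated genes are the genes that cells switch on when type I or type II interferon binds its receptor. Here 49 of them were followed, out of 24824 gene symbols listed in 4 expression tables of mouse microglia, the resident macrophages of the brain. They were taken by gene symbol, from a list of well-known members of the response, and all 49 were listed in every table. Microglia were sorted from the brain and their polyadenylated RNA was sequenced in bulk, so each value belongs to a library of many cells. The study asked how loss of Dicer, the RNase that cuts microRNA precursors, affects microglia at rest, after an inflammatory challenge and during development.

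Adult microglia of 10-12 week old mice formed the first set, with 4 control libraries (Cx3cr1CreER:Dicer+/-) and 3 Dicer-deficient libraries (Cx3cr1CreER:Dicerfl/-), all untreated. The genotypes are those of the sample labels; the series text writes 1 genotype for both adult groups. The second set came from total brain of mice with the same genotypes and ages. It held 3 control and 3 Dicer-deficient libraries at steady state, and 4 control and 4 Dicer-deficient libraries taken 6 h after an intraperitoneal dose of 1 mg/kg lipopolysaccharide (LPS), a bacterial cell wall component. The series text counts 3 rather than 4 Dicer-deficient LPS samples of total brain, and all 4 labelled libraries were used. The labels of the steady-state total-brain libraries also name PBS, without saying if it was given as an injection. The third set was sorted from hippocampus of mice of these genotypes, with 2 control and 3 Dicer-deficient libraries at steady state and 2 of each genotype after the same LPS dose. The developmental set held Dicerfl/fl controls, with 4 libraries at embryonic day 14 (E14), 5 from newborns (P0) and 5 from adults of 6-8 weeks, and 2 newborn Dicer-deficient libraries (Cx3cr1Cre:Dicerfl/fl). The controls of the 3 adult sets carried the CreER transgene and 1 disrupted Dicer allele, so they were not wild type. The labels give the newborn controls no Cre. Cx3cr1 drives both Cre forms and is active in other myeloid cells as well as in microglia. Tamoxifen treatment and the number of animals behind a library are not given in the sources used here. The p-values therefore measure the spread between libraries, which may be technical. P0 and adult cells were sorted as CD45intCD11b+F4/80+Ly6C-Ly6G-, whereas E14 cells were sorted as CD45+CD11b+F4/80hiLy6C-Ly6G-.

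Type I interferons signal through the receptor chains IFNAR1 and IFNAR2 and the kinases JAK1 and TYK2 to a complex that holds STAT2 and IRF9 and binds the interferon-stimulated response element (ISRE) in promoters. Interferon gamma acts at another element, GAS, and induces the guanylate-binding proteins in particular. LPS reaches this pathway through TLR4 and its adaptor TRIF, which lead to interferon beta production. Microglia are known to raise these genes in infection, in ageing and in many disease models. The products include sensors of foreign RNA and DNA, enzymes that attack viral RNA, the ubiquitin-like protein ISG15 and GTPases that act on vacuoles holding pathogens.

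The promoters of several members hold the ISRE letters close to the start site, and 6 that are described below (the effectors Ifit1 and Oas3, Isg15 and 3 guanylate-binding proteins) are shown to let the element be seen. Each window covers 60 bases of RefSeq sequence on build GRCm38.p6, printed 5′ to 3′ on the strand of the gene. Capitals mark the ISRE as searched here, GAAA, any 2 bases and GAAA, or its reverse complement, which begins and ends with TTTC.
Ifit1, chr19:34640779-34640838, plus strand: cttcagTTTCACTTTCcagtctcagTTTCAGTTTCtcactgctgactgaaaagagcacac
Oas3, chr5:120777700-120777759, minus strand: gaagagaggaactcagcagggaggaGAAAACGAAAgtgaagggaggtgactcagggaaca
Isg15, chr4:156200850-156200909, minus strand: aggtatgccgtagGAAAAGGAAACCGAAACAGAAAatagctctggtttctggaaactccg
Gbp2, chr3:142620579-142620638, plus strand: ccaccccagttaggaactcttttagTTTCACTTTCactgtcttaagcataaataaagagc
Gbp5, chr3:142496744-142496803, plus strand: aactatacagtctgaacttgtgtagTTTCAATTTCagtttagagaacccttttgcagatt
Gbp7, chr3:142530258-142530317, plus strand: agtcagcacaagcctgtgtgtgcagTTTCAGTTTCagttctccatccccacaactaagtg

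RefSeq promoter windows, from 250 bases before to 50 bases after the start site, matched 34 of the 49 members. The ISRE letters were found on either strand in 19 of the 34 (55.9%), against 3.99% of 27025 genes and 3.44% of 32851 windows of the same 300 bases. The GAS letters, TTCNNNGAA, were found in 10 of the 34 (29.4%), against 9.55% of genes and 8.3% of windows. The median ISRE match lay 53 bases before the start site, and 14 of the 19 genes had theirs before it. In Gbp7, Gbp2, Isg15, Oas3, Ifit1 and Gbp5 the match began 53, 59, 66, 75, 85 and 165 bases before the start. A match is a description of the letters only. The members with the ISRE letters had a median log2 difference of 1.59 after LPS in total-brain controls, and those without had 1.51.

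Library depth, as whole reads recovered from the tables, was 898451 to 1991621 in the adult set, 2244169 to 4573063 in total brain, 1817611 to 4143142 in hippocampus and 992317 to 3460338 in development. All 8 microglial markers were present in every group. Their summed value was 73132 to 79084 in the steady-state total-brain libraries and 36882 to 71164 after LPS. The highest of these belonged to the library labelled LPS control 33, which also held the largest monocyte and neutrophil marker sum of the set (3671) and had Cx3cr1 at 6058, near the 6773 to 7076 of steady-state controls. Dicer1 transcript does not check the deletion here, because reads outside the deleted part still count. It was 117 to 151 in the adult Dicer-deficient libraries and 97.6 to 153 in their controls. A lower value for a gene can come from fewer cells that express it or from less RNA per cell, and bulk libraries cannot tell these apart. Members of the Oas1, Ifi200, Gbp, Slfn, Ly6 and Ifit families have close relatives, so reads may have been split between copies.

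Each library can be summarised by the mean of log2(value + 1) over the 49 genes, where a value is the deposited normalised read count. This mean was 4.47 to 5.57 in the 6 steady-state total-brain libraries and 6.20 to 8.02 in the 8 LPS libraries, without overlap. In hippocampus it was 5.28 to 5.76 in the 5 steady-state libraries, 7.57 and 8.00 in the LPS controls, and 5.71 and 6.92 in the LPS Dicer-deficient libraries. In development it was 6.03 to 6.45 at E14, 4.18 to 5.19 at P0 and 4.94 to 5.16 in adults. The tables were normalised separately, so levels were not compared between them.

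**Figure D1:**
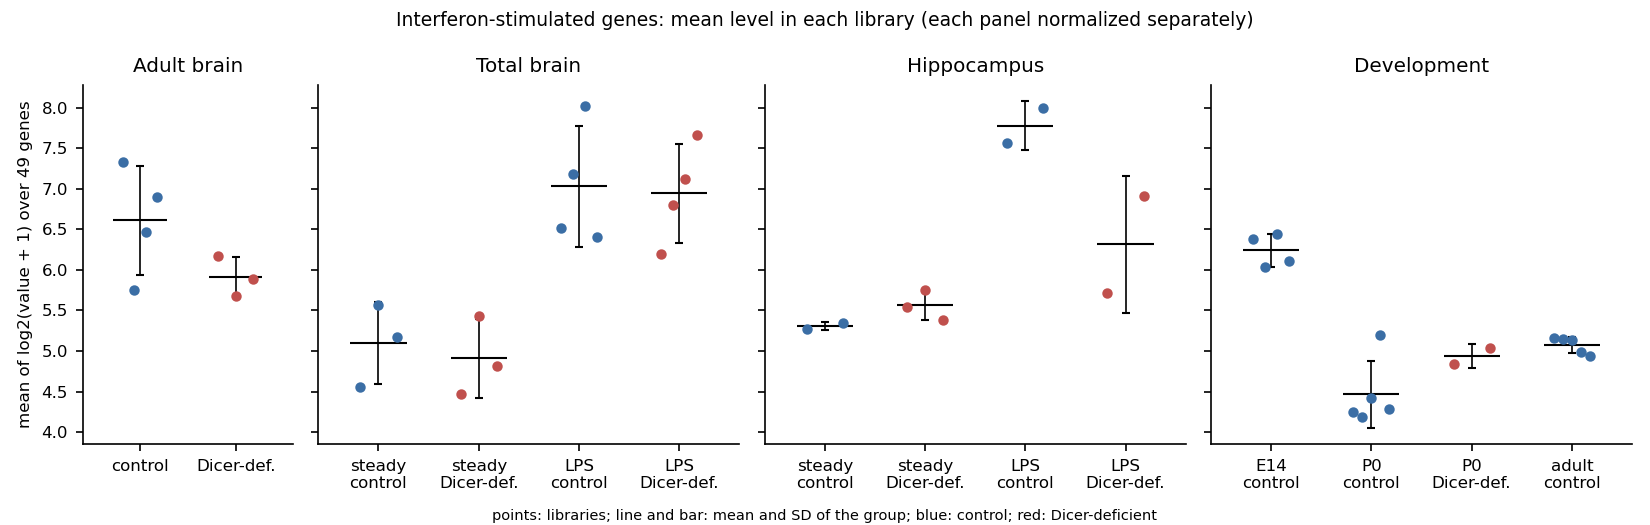
Mean of log2(value + 1) over the 49 genes (vertical axis) in each library, with 1 panel per separately normalised table. Points are libraries, lines and bars are the mean and SD of each group. LPS libraries of total brain lie at 6.20 to 8.02, above the 4.47 to 5.57 of steady state, and E14 libraries at 6.03 to 6.45 lie above those of P0 and adult.

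In control microglia of total brain, LPS raised interferon-stimulated genes of every role. Of the 49 members, 31 rose and none fell, where a gene is called when limma's adjusted p over all genes tested is under 0.05. Among all 13423 genes tested 7.05% were called higher and 7.08% lower. The members' median log2 difference was 1.68, with a range of 0.36 to 5.06, against -0.05 for all genes tested. All log2 differences here are on the log2(value + 1) scale, which understates the change of genes with low values. Without the LPS control library 33 the count was 36, and without the steady-state control library 7 it was 18.

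The RNA-binding and nucleotide-directed effectors moved most often, with 12 of 15 called. Oas2, which makes the 2-5A messenger that activates RNase L, stood at 0, 15.1 and 10.3 in the 3 steady-state controls and at 135, 228, 422 and 95.1 after LPS. It rose by 5.06 (SE 0.87, adjusted p = 0.00265 by limma), the largest difference of the 49, and no LPS library reached down to a steady-state value. Slfn2, a regulator of immune cell quiescence, went from 95.5, 125 and 110.3 to 826.5, 961, 1164 and 272. That is a rise of 2.68 (SE 0.37, adjusted p = 0.000764 by limma), and library 33 was the low one. Ifit1, which binds viral RNA that lacks host cap methylation, was 4.7, 14.3 and 17.2 and then 33, 88.2, 168 and 36.6, a rise of 2.51 without overlap (SE 0.61, adjusted p = 0.0121 by limma).

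Of the sensors and their regulators, 4 of 7 were called. Ifi204, a DNA-binding sensor, was 10.4, 42.1 and 42.5 at steady state and 206, 342, 697 and 105 after LPS, a rise of 3.28 (SE 0.62, adjusted p = 0.004 by limma). Adar, which edits adenosines in double-stranded RNA, was 134, 156 and 131 and then 285, 359.8, 532 and 198. Its rise of 1.20 (SE 0.25, adjusted p = 0.00551 by limma) came without overlap of the groups. Ifih1, the sensor of long double-stranded RNA also called MDA5, had 41.6, 63.1 and 47.1 before and 60.9, 119, 161 and 45.6 after LPS. Its difference of 0.77 and that of Eif2ak2, the kinase PKR, of 0.38 did not pass the test (adjusted p = 0.204 and 0.508 by limma), and their groups overlapped.

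The ISG15 and ubiquitin class had 3 of 7 called. Isg15, the ubiquitin-like modifier, rose from 42.5, 54.7 and 54 to 193, 266, 601 and 149, by 2.36 (SE 0.40, adjusted p = 0.00254 by limma). Usp18, which removes ISG15 and dampens the receptor, rose from 2.8, 29.4 and 17.2 to 83.6, 137.5, 243 and 71.3, by 3.23 (SE 0.66, adjusted p = 0.00533 by limma). In both genes library 32 was highest and library 33 lowest.

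Membrane proteins gave 3 of 4 calls. Ifitm3, which blocks virus entry in endosomes, rose from 16.1, 40.4 and 14.9 to 229, 342.5, 575.5 and 101 (log2 difference 3.54, SE 0.56, adjusted p = 0.00176 by limma). Ly6a, the surface protein Sca-1, rose from 8.5, 28.6 and 6.9 to 73.3, 129.7, 175 and 39.6 (2.81, SE 0.48, adjusted p = 0.00248 by limma). Neither pair of groups overlapped.

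The guanylate-binding proteins and immunity-related GTPases were the class with the lowest share of calls, 2 of 7, with a median log2 difference of 0.87. Gbp2 rose from 12.3, 8.4 and 20.7 to 58.8, 132, 262 and 22.8 (2.59, SE 0.62, adjusted p = 0.0119 by limma), a call lost without the steady-state control library 8. Iigp1 rose from 0, 4.2 and 3.4 to 11.4, 19.9, 30.9 and 6.9 (2.49, SE 0.70, adjusted p = 0.0251 by limma), and this call was lost without LPS control 31, LPS control 32 or steady-state control 7. Of the other induced genes, 7 of 9 were called. Rtp4, a chaperone of receptors, rose from 20.8, 52.1 and 42.5 to 191, 293, 697.5 and 159 (2.93, SE 0.51, adjusted p = 0.00284 by limma). Ifi35, a partner of Nmi, was 231, 358 and 227 before and 628, 842, 831 and 351 after LPS, which put library 33 just inside the steady-state range (1.23, SE 0.26, adjusted p = 0.00656 by limma).

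Library 32 held the highest value of its group for 47 of the 49 members and library 33 the lowest for 32. Library 32 also had the most reads of the LPS controls (3317092). Monocyte and neutrophil markers summed to 14.9 to 42.8 in steady-state controls and to 130 to 3671 in LPS controls. All 12 of these markers were present after LPS, 6 of the 12 were called higher and 1 was called lower. Of the 8 microglial markers 5 were called lower. The part of these cells and of depth in the members' rise was not tested.

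**Figure D2:**
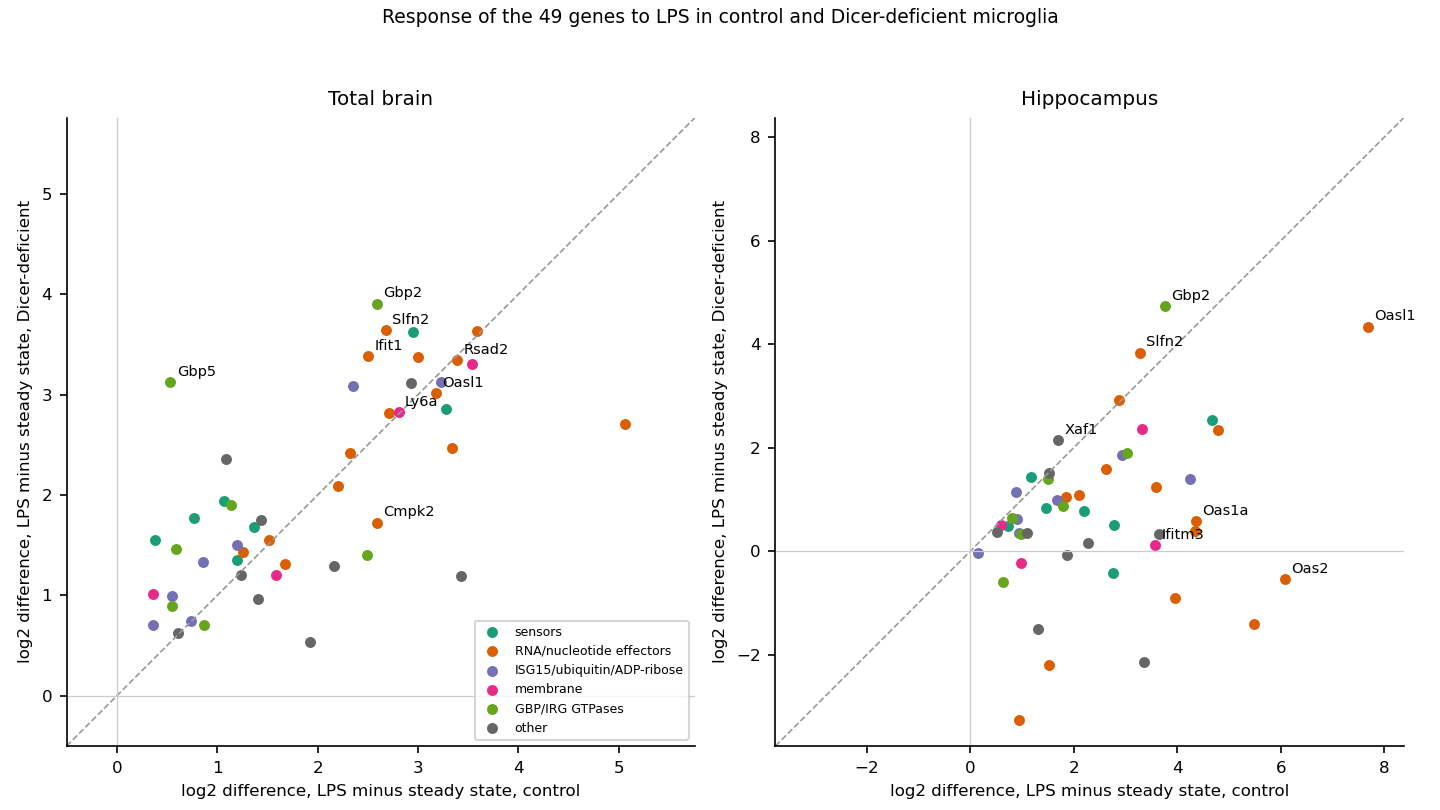
Log2 difference between LPS and steady state for each of the 49 genes in controls (horizontal axis) and in Dicer-deficient microglia (vertical axis), in total brain and hippocampus, with points coloured by role and a dashed line of equality. The axes of a panel have different control and Dicer-deficient libraries; no gene is below 0 on either axis of total brain, whereas 12 are below 0 in Dicer-deficient hippocampus.

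Dicer-deficient microglia of total brain also raised the set after LPS. Of the 49 members 37 rose and none fell, against 12.2% called higher and 12.8% called lower among all genes tested. The median was 1.75 with a range of 0.54 to 3.91, beside -0.04 for all genes. All 7 sensors and their regulators, 13 of 15 effectors, 5 of 7 of the ISG15 class, 4 of 4 membrane proteins, 4 of 7 GTPases and 4 of 9 other genes were called.

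Slfn2 stood at 63.6, 119.5 and 99 at steady state and at 906, 1125, 1057 and 1617 after LPS, a rise of 3.64 (SE 0.37, adjusted p = 4.64e-06 by limma). Gbp2 went from 15.4, 31.6 and 30.5 to 152, 399, 565 and 628, the largest rise of the set in these cells at 3.91 (SE 0.62, adjusted p = 0.00024 by limma). Gbp5, a guanylate-binding protein tied to inflammasome assembly, went from 18.3, 10.5 and 20 to 88.9, 141.5, 144 and 242 (3.13, SE 0.40, adjusted p = 3.97e-05 by limma). In each of these genes every LPS library lay above every steady-state library.

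Ifih1 was 29.9, 38.6 and 46.6 at steady state and 70.4, 157, 155.5 and 175 after LPS, a rise of 1.78 (SE 0.39, adjusted p = 0.00278 by limma). Eif2ak2 was 100.3, 87.1 and 101 and then 211, 262, 287 and 399 (1.55, SE 0.35, adjusted p = 0.00351 by limma). Adar was 134, 146 and 145 and then 392, 295, 383 and 392 (1.35, SE 0.25, adjusted p = 0.000655 by limma). Of the genes called in controls, Oas2 rose here by 2.71 (adjusted p = 0.0292 by limma), a call lost with edgeR, with DESeq2, with a pseudocount of 0.1 and without library 37, 38, 5 or 12. Its steady-state value was 68.2 in library 11b, above the 59.3 of LPS library 35.

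In these 4 LPS libraries the members' level had the same order as depth. Library 35 was lowest for 39 members and library 38 highest for 43, and their reads ran from 2694274 in library 35 to 4573063 in library 38. Whether depth plays a part in that order was not tested. Monocyte and neutrophil markers summed to 606 to 3543 here, and 22.3 to 369 in the steady-state Dicer-deficient libraries, with 8 of 12 called higher. Erythroid markers summed to 2568 to 6024.5 after LPS and 79.4 to 384.5 at steady state, with 4 of 4 called higher, and 5 of 8 microglial markers were called lower. The part of these cells in the rise was not tested.

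The genotypes were then compared within each condition of total brain. At steady state limma called 0 of 49 members, and 5 had an unadjusted p under 0.05, all lower in Dicer-deficient cells. The share of all genes under that unadjusted threshold is not given, here or in later comparisons, so such counts have no background. edgeR with either scaling called 0 and DESeq2 called 2, Ly6e and Xaf1, both lower. Among all genes 0.797% were called higher and 1.38% lower. The smallest adjusted p belonged to Xaf1, a pro-apoptotic factor, with 52.9, 45.4 and 65.5 in controls and 15.4, 17.6 and 22.8 in Dicer-deficient libraries (difference -1.51, SE 0.39, adjusted p = 0.0513 by limma). Tor3a, a torsin ATPase of the endoplasmic reticulum, had 233, 226 and 206 against 105, 124 and 92.3, and Ly6e, a surface protein that restricts coronavirus entry, had 5854, 7255 and 5981 against 3540.1, 4549 and 2953. Neither Tor3a nor Ly6e passed the test (adjusted p = 0.0805 and 0.125 by limma), although their groups did not overlap. In a fit of the steady-state libraries alone limma called all 3, with adjusted p = 0.0283 for Xaf1, 0.0153 for Tor3a and 0.0477 for Ly6e.

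After LPS, 3 of 49 members were higher and 1 of 49 was lower in Dicer-deficient cells. These counts were near the shares of all genes, 3.75% and 5.12%. All 3 higher ones were guanylate-binding proteins, whose windows shown above lie on chr3, so they may not be independent. Gbp5 had 31, 31.1, 64.7 and 19.8 in controls and 88.9, 141.5, 144 and 242 in Dicer-deficient libraries, a difference of 2.08 (SE 0.37, adjusted p = 0.00236 by limma). This call held under every alternative run, and the groups did not overlap. Gbp7 had 669, 701, 929 and 362.5 against 1199, 1212.5, 1664 and 2097, also without overlap, a difference of 1.25 (SE 0.34, adjusted p = 0.0297 by limma). It was lost without LPS Dicer-deficient library 37 or 38 or LPS control 17 or 33.

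Gbp2 had 58.8, 132, 262 and 22.8 against 152, 399, 565 and 628, with library 35 inside the control range (2.19, SE 0.58, adjusted p = 0.0246 by limma). Its call was lost in a fit of the LPS libraries alone and without library 36, 37, 38 or 17. Tor3a was the lower one, with 248, 282, 578 and 328 against 112, 136, 189.8 and 251 (-1.04, SE 0.26, adjusted p = 0.0182 by limma). Its call was lost in a fit of the LPS libraries alone and without library 35, 36 or 32. The other 45 members were not called, and the median over all 49 was -0.06 against -0.1 for all genes. Without each library in turn that median ran from -0.33 to 0.194, on both sides of 0. Astrocyte markers summed to 1101 to 2045 in LPS Dicer-deficient libraries and 593 to 868 in LPS controls, with 4 of 5 and 2 of 5 markers present and 1 called higher. Of the 12 monocyte and neutrophil markers 4 were called higher in Dicer-deficient cells, with sums of 606 to 3543 against 130 to 3671, and of the 8 microglial markers 2 were called lower. Neuronal markers summed to 27.9 to 35 against 5.2 to 11.4, with 1 of 5 called higher. The part of all these in the differences was not tested.

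The interaction asks whether the LPS effect itself differed between genotypes. limma called 0 of 49 members, 3 had an unadjusted p under 0.05 (all with a larger rise in Dicer-deficient cells), edgeR called 0 and DESeq2 called 1. Among all genes 0.127% were called higher and 0.0447% lower. Gbp5 was nearest, with a difference between the rises of 2.59 (SE 0.57, adjusted p = 0.066 by limma). DESeq2 called it (2.62, adjusted p = 0.00644), and so did limma without LPS control library 32 (2.90, adjusted p = 0.0285). The next were Xaf1 at 1.27 and Eif2ak2 at 1.16 (adjusted p = 0.417 and 0.453 by limma). A rise called in 1 genotype and not in the other, as for Ifih1 and Eif2ak2, was therefore not shown to differ between them.

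In hippocampal controls, LPS moved the same list upward from 2 libraries to 2 libraries. Of the 49 members 16 were called higher and none lower, against 2.35% and 2.89% of all 12366 genes tested, and the median was 2.11 against 0.0. DESeq2 called 25. Each count without a library was much smaller: 3 without LPS control 15, 0 without LPS control 16, 5 without steady-state control 1 and 2 without steady-state control 2. Each of the 16 calls was lost in some of these fits, so the counts rest on all 4 libraries. Of the 8 microglial markers 4 were called lower, and border macrophage markers summed to 6.5 to 29.8 after LPS and 232 to 351 at steady state, with 2 of 6 called lower. Cx3cr1 was 688 and 7139 in the 2 steady-state controls, far apart for a microglial gene. Their part was not tested.

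The values of the members described next did not overlap, apart from those of Iigp1. Usp18 was 15.1 and 7.83 at steady state and 163 and 315 after LPS (4.26, SE 0.75, adjusted p = 0.00621 by limma). Oas2 was 30.2 and 0 and then 316 and 454 (6.09, SE 1.26, adjusted p = 0.0151 by limma). Oas3 was listed at 0 in both steady-state controls and at 48.9 and 38.7 after LPS (adjusted p = 0.0254 by limma), and no fold is given for it.

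Ifitm3 went from 66.5 and 71.2 to 694 and 993 (3.57, SE 0.86, adjusted p = 0.0319 by limma). Gbp2 went from 30.2 and 13.3 to 235 and 350.3 (3.77, SE 0.95, adjusted p = 0.0388 by limma). Lgals3bp, a secreted galectin ligand, went from 759 and 834 to 1853 and 4534 (1.86, SE 0.48, adjusted p = 0.0453 by limma). Iigp1 did not follow, with 66.5 and 3.13 before and 28.6 and 21.6 after LPS (adjusted p = 0.919 by limma).

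Dicer-deficient hippocampal microglia had 5 members called higher and none lower after LPS, against 3.87% and 4.61% of all genes. DESeq2 called 11. The median was 0.62 against 0.05 (1.15 without LPS library 18), 37 members lay above 0 and 12 below. The 5 were Slfn2, Adar, Gbp2, Ifi35 and Xaf1. Slfn2 had 12.7, 215.5 and 95.6 at steady state and 641 and 1384.5 after LPS (3.84, SE 0.86, adjusted p = 0.0162 by limma), and Gbp2 had 2.11, 25.5 and 13.8 and then 193 and 414 (4.73, SE 0.87, adjusted p = 0.00541 by limma). Both groups were apart in these genes. In a fit of the 5 Dicer-deficient libraries alone, 2 calls were left, and without library 20 there were 2 as well. Monocyte and neutrophil markers summed to 293 to 315 after LPS and 7273 to 7451 at steady state, with 5 of 12 called lower and 1 higher. Border macrophage markers summed to 1.4 to 8.7 and 280 to 433.5, with 4 of 6 called lower, and 5 of 8 microglial markers were called lower. The part of these cells in the members' values was not tested.

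Other named members were not called in this genotype. Oas2 was 72.9, 40.5 and 100.5 at steady state and 25 and 82.1 after LPS. Ifitm3 was 147, 36.7 and 94.8 and then 27.8 and 268, and Rtp4 was 99.4, 95.9 and 60.8 and then 59.7 and 186. In each of these the groups overlapped and library 18 was the lower of the LPS pair. Library 18 had a mean log2 level of 5.71 over the 49 genes and library 20 had 6.92, so the pair spanned much of the distance between steady state and LPS controls. Library 18 also had the fewest reads of the hippocampal libraries, 1817611 against 3843226 in library 20. The part of depth in its low values was not tested.

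Between hippocampal genotypes limma called no member in either condition. At steady state 8 members had an unadjusted p under 0.05 (5 higher and 3 lower in Dicer-deficient cells), edgeR called 0 and DESeq2 called 2, Gbp7 and Oas3, both higher. Background rates of limma calls at adjusted p were 0.154% higher and 0.0162% lower, which are no background for the unadjusted count. Gbp7 was 347 and 416 in controls and 777, 727.5 and 677 in Dicer-deficient libraries, apart but not called (0.93, adjusted p = 0.117 by limma). Oas3 was 0 and 0 against 18, 15.6 and 15.4 (adjusted p = 0.201 by limma). Monocyte and neutrophil markers summed to 7273 to 7451 in the Dicer-deficient and 466 to 2458 in the control steady-state libraries, with 10 of 12 markers present in each; their part was not tested.

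After LPS 16 members had an unadjusted p under 0.05, 15 of them lower in Dicer-deficient cells, with 0 calls by limma and edgeR and 2 by DESeq2 (Ifitm3 and Lgals3bp, both lower). Background rates of limma calls at adjusted p were 0.162% higher and 0.146% lower, which are no background for the unadjusted count. Of the 49, 45 lay below 0, with a median of -1.42 against -0.05 for all genes. The median was -0.80 without LPS Dicer-deficient library 18. Lgals3bp had 1853 and 4534 in controls and 369 and 1216 in Dicer-deficient libraries (-2.11, SE 0.48, adjusted p = 0.125 by limma). Ifitm3 had 694 and 993 against 27.8 and 268 (-3.24, SE 0.86, adjusted p = 0.189 by limma), and Ifi27l2a, a mitochondrial protein strongly induced by interferon, had 146 and 225 against 2.78 and 48.4 (-3.74, SE 1.02, adjusted p = 0.205 by limma).

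The guanylate-binding proteins named above lay elsewhere, with log2 differences of -0.02 for Gbp2, 0.81 for Gbp5 and 0.77 for Gbp7. Gbp2 had 235 and 350.3 in controls against 193 and 414, Gbp5 had 54.7 and 60.9 against 86.1 and 121, and Gbp7 had 611 and 725 against 1066 and 1207, each without a call. For the hippocampal interaction limma and edgeR called 0 members, 13 had an unadjusted p under 0.05 (all with a smaller rise in Dicer-deficient cells) and DESeq2 called 1, Oas3 (adjusted p = 0.0436). The smallest adjusted p by limma was 0.528. Background rates of limma calls at adjusted p were 0.0% and 0.0162%, which are no background for the unadjusted count. Each LPS group held 2 libraries.

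In the adult set at steady state, Dicer-deficient microglia had 1 member higher and 3 lower than controls, against 3.15% and 2.0% of 11045 genes tested. Sp100 was listed at 0 in all 7 libraries and not tested. Of the 48 tested, 38 lay below 0, with a median of -0.77 against 0.05 (-0.42 without control library 1). An unadjusted p under 0.05 was found for 17, of which 16 were lower. The share of all genes under that threshold is not given, so the 17 have no background. Lgals3bp had 2059, 1379.6, 1933 and 1715 in controls and 619, 498 and 612 in Dicer-deficient libraries, a difference of -1.61 (SE 0.17, adjusted p = 2.14e-05 by limma). Tor3a had 891, 510.4, 612 and 657 against 279.8, 197 and 287 (-1.38, SE 0.21, adjusted p = 0.000952 by limma). Both genes kept their call under each alternative, and the groups were far apart.

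Gbp7 was the higher one, with 1029.5, 993, 1036.5 and 1387 in controls and 2513, 2085 and 2322 in Dicer-deficient libraries (1.06, SE 0.16, adjusted p = 0.000588 by limma). Ly6e had 19764, 16499.9, 14221 and 12027 against 8393, 9792 and 9706 (-0.73, SE 0.18, adjusted p = 0.0236 by limma). Ly6e lost its call without control library 1, 2 or 3 or Dicer-deficient library 1, while its groups did not overlap.

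No effector or sensor was called by limma in the fit of all libraries without a block. With the replicate number as a block, limma called the effector Slfn2 lower (-1.22, adjusted p = 0.0371). edgeR with either scaling also called Ly6a, Phf11d and the effector Slfn5, all lower, and DESeq2 called Ly6a and Slfn5 of these. Ifitm3 was 64.3, 3.99, 21.5 and 15.4 in controls and 2.59, 0 and 4.63 in Dicer-deficient libraries (adjusted p = 0.144 by limma). These values rest on 13, 1, 4 and 3 reads against 1, 0 and 1. Isg15 was 24.7, 15.9, 37.6 and 35.9 against 5.18, 7.72 and 9.27, apart but not called (-1.77, SE 0.69, adjusted p = 0.166 by limma). Its reads were 5, 4, 7 and 7 against 2, 2 and 2, so only a few reads separate the groups. Control library 1 was highest for 33 of the 48 members and control library 2 lowest for 33. Ifih1 was 134, 116, 48.3 and 118 against 137, 131 and 176, and Eif2ak2 was 470.2, 387, 494 and 431 against 438, 201 and 463.5, both without a call. Endothelial markers summed to 139 to 207 in controls and 38.6 to 51.0 in Dicer-deficient libraries, with 3 of 5 present in each, and astrocyte markers to 1406 to 1563 and 632 to 1162, with 4 of 5 present in each; 1 marker of each list was called lower. Their part in the lower values was not tested.

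Of the 48 members tested in all 5 comparisons of adult genotypes, 9 had a log2 difference below 0 in all, 1 had one above 0 in all and 38 had both signs. The 9 were Ifit2, Mx1, Ly6e, Ly6a, Irgm1, Xaf1, Phf11d, Lgals3bp and Tor3a. The share of all genes with the same sign in all 5 is not given, so the 9 have no background. Some of these differences were near 0, such as -0.0077 for Phf11d at steady state and -0.0501 for Ifit2 after LPS in total brain. Gbp7 means were higher in Dicer-deficient than in control libraries in all 5 comparisons of adult genotypes, with log2 differences of 1.06, 0.37, 1.25, 0.93 and 0.77. At steady state in total brain, Dicer-deficient library 11b (243.8) lay below all controls (385.2 to 470.9). The newborn pair, outside these 5, had 218 and 810 against 397, 509 and 426. Gbp7 was called in the adult set and in the total-brain LPS comparison. Tor3a was lower in all 5, at -1.38, -1.05, -1.04, -1.25 and -1.98, with calls in the same pair of comparisons. Lgals3bp was lower in all 5, at -1.61, -0.88, -0.56, -0.18 and -2.11, with a call in the adult set only.

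**Figure D3:**
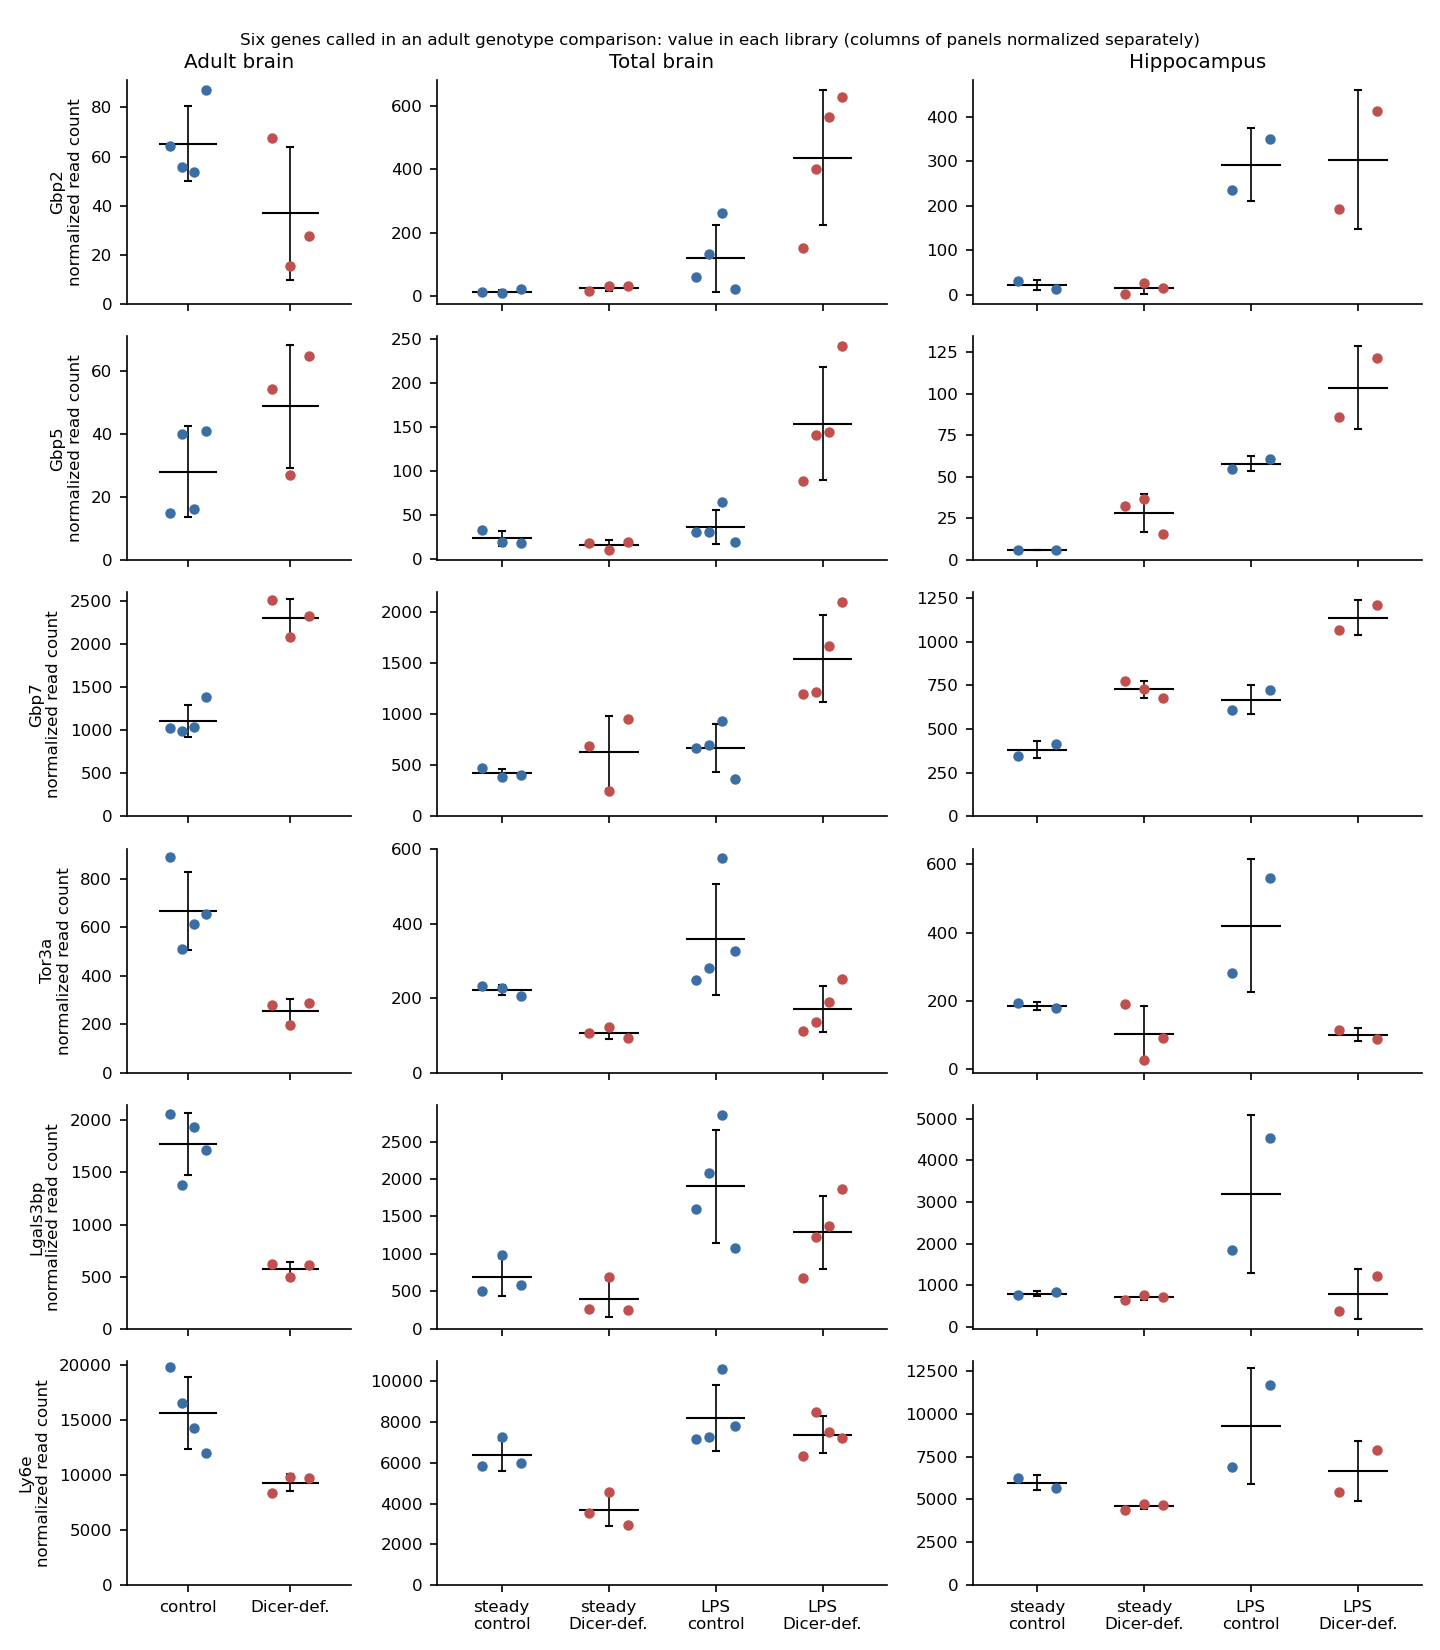
Normalised read count (vertical axis, a scale for each panel) of 6 members called in a genotype comparison of adult mice, in every control (blue) and Dicer-deficient (red) library of the 3 adult sets, with the mean and SD of each group. Gbp5 after LPS in total brain lies at 88.9 to 242 in Dicer-deficient libraries and 19.8 to 64.7 in controls; Tor3a lies at 197 to 287 against 510.4 to 891 in the adult set.

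In development, embryonic microglia held the highest levels of most members. From E14 to P0, 41 of 49 fell and 1 rose, against 14% and 7.58% of 14957 genes tested, with a median of -1.76 against -0.12. Lower calls were made for 6 of 7 sensors, 13 of 15 effectors, 7 of 7 of the ISG15 class, 3 of 4 membrane proteins, 5 of 7 GTPases and 7 of 9 other genes. Stage and sorting gate differ together between E14 and P0, so they cannot be told apart. The comparisons of P0 with E14 and of adult with P0 share the P0 libraries.

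Ifi27l2a had 804, 629, 909 and 669 at E14 and 69.8, 29.2, 52.4, 109 and 36.2 at P0, a fall of 3.78 on the log2 scale (difference -3.78, SE 0.28, adjusted p = 1.24e-08 by limma). Usp18 had 36, 34.8, 42.7 and 33.4 and then 0, 0.62, 1.52, 7.08 and 0 (-4.22, SE 0.48, adjusted p = 4.71e-06 by limma). Oas2 had 138, 87.4, 160.3 and 96.1 and then 7.27, 3.73, 3.8, 13 and 3.5 (-4.17, SE 0.45, adjusted p = 2.07e-06 by limma). No P0 library reached the E14 range in any of these genes.

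Isg15 went from 86.5, 101, 102 and 70.8 to 11.6, 13.1, 10.6, 16.5 and 16.3 (-2.64, SE 0.27, adjusted p = 1.18e-06 by limma). Ifi204 went from 284, 183, 310.2 and 223 to 20.4, 20.5, 22.8, 72.6 and 24.5 (-3.08, SE 0.35, adjusted p = 4.71e-06 by limma), and P0 library 4 was the high one. The member that rose was Gbp7, from 304, 210.1, 278 and 262 to 397, 509, 426, 390.0 and 449.6 (0.73, SE 0.24, adjusted p = 0.0322 by limma). Its call was lost without E14 library 2, 3 or 4 or P0 library 2, 3 or 5. The 7 members not called were Eif2ak2, Mx2, Slfn2, Ly6e, Gbp5, Xaf1 and Lgals3bp.

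For the double-stranded RNA genes Ifih1, Adar and Eif2ak2 the fall was smaller than the median of -1.52 for the sensors and their regulators. Ifih1 had 65.7, 33.8, 50.3 and 47.2 at E14 and 20.4, 28.6, 30.4, 32.5 and 28 at P0 (-0.77, SE 0.23, adjusted p = 0.0186 by limma), a call lost without E14 library 1. Adar had 187, 185, 158 and 155 and then 132, 108, 121, 152 and 119 (-0.44, SE 0.15, adjusted p = 0.0414 by limma). Adar lost its call with edgeR's TMM scaling and without any of the 9 libraries except P0 library 4. Eif2ak2 had 239, 154.5, 227 and 163.5 and then 128, 175, 195, 155 and 167, which overlapped.

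P0 library 4 was the highest P0 library for 41 of the 49 members and set the upper end of the P0 range in the plot of mean levels. Without it 43 members were called between P0 and E14. Erythroid markers summed to 10156 to 43172 in P0 controls and to 363 to 728 at E14, with all 4 present, and border macrophage markers to 782 to 1083 and 473 to 741, with all 6 present. Neuronal markers summed to 42.9 to 77.1 at P0 and 147 to 459 at E14, with all 5 present. Their part in the fall was not tested.

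From P0 to adult the direction turned for a smaller number of genes. Of the 49, 14 rose and 1 fell, against 17.2% and 21.6% of all genes, so the share that rose was 14 of 49 beside that background, with a median of 0.51 against -0.1. Usp18 rose again, to 25.1, 21.9, 17.3, 9.14 and 17.1 (3.18, SE 0.45, adjusted p = 8.46e-06 by limma). Isg15 rose to 17.9, 33.3, 42.3, 32.5 and 23.2 (1.04, SE 0.26, adjusted p = 0.00259 by limma). Ly6e rose from 2014, 1935, 2073.5, 2942 and 2189 to 4578.5, 5283, 3970.2, 4349 and 4652 (1.04, SE 0.18, adjusted p = 8.81e-05 by limma), so that all adult libraries lay above all P0 libraries in these 3 genes.

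Further rises were called for the sensor Ddx58 (RIG-I), for Ifit3, Herc6, Trim30a, Ly6a, Irgm1, Igtp, Ifi35, Phf11d, Sp100 and Tor3a. Slfn2 fell, from 129, 141, 147, 216.5 and 148 to 94, 64, 99.2, 81.3 and 122 (-0.76, SE 0.18, adjusted p = 0.00145 by limma). Without P0 library 4 the count of calls was 23. Border macrophage markers summed to 13.2 to 62.0 in adults, with 6 of 6 called lower than at P0, 4 of 4 erythroid markers were called lower and 4 of 8 microglial markers higher. Their part was not tested.

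Adult controls stayed below E14, with 28 members lower and 1 higher, against 29.8% and 18.8% of all genes and a median of -1.06 against -0.15. Ifi27l2a had 43.8, 71.1, 38.8, 39.6 and 39.3 in adults (difference from E14 -4.01, SE 0.28, adjusted p = 1.63e-10 by limma), and Oas2 had 17.2, 16.7, 12.1, 4.06 and 4.03 (-3.54, SE 0.45, adjusted p = 1.15e-06 by limma). Of the effectors 13 of 15 were lower. Ly6e was the higher one (0.72, SE 0.19, adjusted p = 0.00392 by limma). Stage and sorting gate differ together here as well and cannot be told apart. Of the markers, 5 of 6 for border macrophages and 5 of 5 for neurons were called lower in adults. Of the 8 microglial markers 6 were called higher and 1 lower. Their part was not tested.

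**Figure D4:**
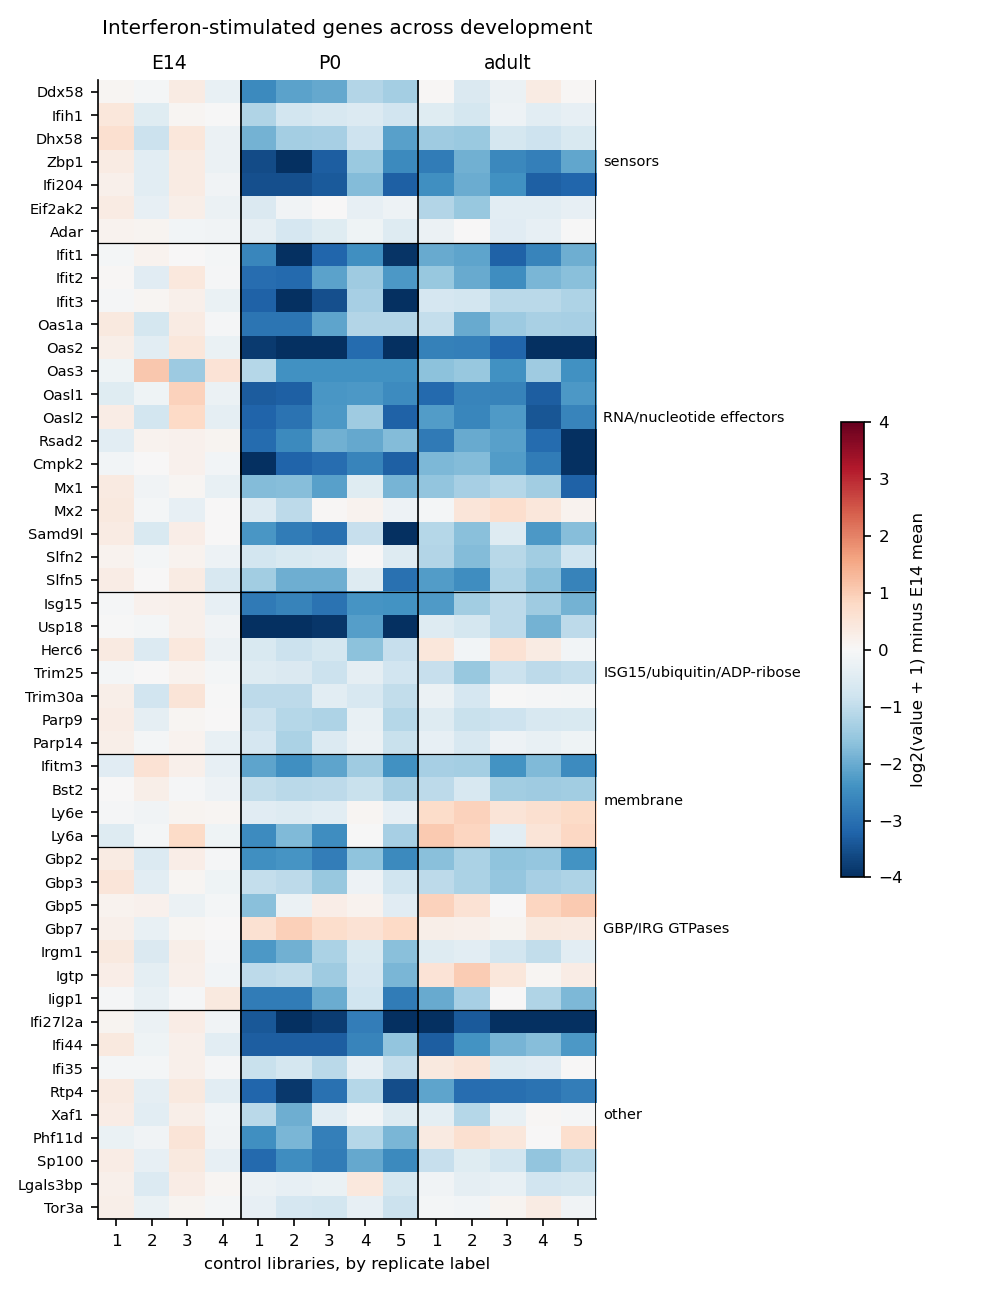
Heat map of log2(value + 1) minus the E14 mean for the 49 genes (rows, by role) in the 14 control libraries of E14, P0 and adult (columns, by replicate label). Blue is below and red above the E14 mean; the P0 columns are blue for most genes, P0 library 4 is paler than the other P0 libraries, and the Gbp7 row is red at P0.

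In newborns, Dicer-deficient microglia had 1 member called higher and none lower, against 1.04% and 0.444% of 13064 genes tested. Iigp1 and Ifi44 were too low to test, and the median over the 47 tested was 0.49 against -0.06. That median was 0.20 with all 5 P0 controls. The 2 Dicer-deficient libraries were compared with P0 controls 1 to 3, as the series design does. Slfn2 had 129, 141 and 147 in controls and 832 and 562 in Dicer-deficient libraries (2.29, SE 0.27, adjusted p = 0.00454 by limma). Of the 47, 17 had an unadjusted p under 0.05, all of them higher, and the share of all genes under that threshold is not given.

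Usp18 was 0, 0.62 and 1.52 in controls and 7.8 and 9.36 in Dicer-deficient libraries (2.58, SE 0.65, adjusted p = 0.086 by limma). Ifi27l2a was 69.8, 29.2 and 52.4 against 161 and 142 (1.65, SE 0.38, adjusted p = 0.0708 by limma), and Ifi204 was 20.4, 20.5 and 22.8 against 44.2 and 125 (1.77, SE 0.46, adjusted p = 0.0909 by limma). The groups were apart in each of these without a call, though P0 control 4, outside this comparison, had Ifi204 at 72.6. Ifih1 was 20.4, 28.6 and 30.4 against 20.8 and 29.3, and Eif2ak2 was 128, 175 and 195 against 125 and 205, both overlapping.

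The newborn count depended on the libraries and the setting, without a share of all genes for these other fits. It was 12, all higher, when all 5 P0 controls entered a fit of the whole developmental table. It was 0 without P0 control 1 or 2, and Slfn2 lost its call in both. It was 7 without Dicer-deficient library 1 and 21 (15 higher and 6 lower) without Dicer-deficient library 2; in both fits the lone library left was assumed to vary like the controls. Cx3cr1 was 647 and 3129 in the Dicer-deficient pair and 3744 to 5801 in the P0 controls. Low Cx3cr1 was not limited to that pair, since the developmental adult controls ran from 490 to 8687. Erythroid markers summed to 6315 to 11812 in the Dicer-deficient pair. The part of Cx3cr1 and of these markers was not tested.

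The pathway upstream of these genes was read from lists of ligands, receptors, transcription factors, induction routes and regulators. Interferon transcripts were at the edge of detection. Ifnb1 had 7 reads in all E14 libraries together, 7 in all P0 controls, 4 in the developmental adults, 4 in total-brain LPS Dicer-deficient libraries, 3 in steady-state total-brain controls, 4 in hippocampal steady-state Dicer-deficient libraries and 0 elsewhere. Ifng had 0 reads in every group. A count of 0 allows up to the level of 3 reads in that group, counting error only.

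After LPS in total-brain controls, 3 of 9 interferon transcription factors were called higher and 2 lower. Among all genes tested 7.05% were called higher and 7.08% lower, the shares to set beside each count of this paragraph. Irf7, which amplifies interferon production, had group means of 491 after LPS and 48.3 at steady state (3.05, SE 0.50, adjusted p = 0.00199 by limma), and Irf8, a microglial lineage factor, fell (-0.80, SE 0.22, adjusted p = 0.0207 by limma). Of 7 receptors and kinases 1 was called, Ifngr1 (0.89). Of 11 genes on routes to interferon induction 3 rose, among them Ikbke, a kinase that phosphorylates IRF3 (3.40), and Cd14, the LPS co-receptor (1.55). Of 7 negative regulators 2 rose, Socs3 (2.11) and Trex1 (1.09), and of 29 other interferon-stimulated genes 10 rose and none fell.

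Dicer-deficient cells of total brain had 5 transcription factors higher and 1 lower after LPS, and 12 of the 29 other interferon-stimulated genes higher. The shares of all genes called were 12.2% higher and 12.8% lower. Between genotypes after LPS, Ifngr2, a chain of the interferon gamma receptor, was higher in Dicer-deficient cells (1.09, SE 0.15, adjusted p = 0.000317 by limma), with Jak1 (0.72), Ikbke (2.69), Mb21d1, the DNA sensor cGAS (0.61), and Socs3 (1.56). Irf8 was lower (-0.93) and so was Slfn9 (-2.91). In that comparison 3.75% of all genes were called higher and 5.12% lower. Ifngr2 was also higher in the adult set at steady state (0.72, SE 0.15, adjusted p = 0.00769 by limma), where 2 of 28 other interferon-stimulated genes, Epsti1 (-1.23) and Nlrc5 (-1.71), were lower. Of all genes tested in the adult set, 3.15% were called higher and 2.0% lower.

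In hippocampus Irf7 (3.35) and Stat2 (1.51) were the 2 of 9 factors called in controls after LPS, and Irf9 (1.63) and Stat2 (1.42) were called higher and Irf8 lower in Dicer-deficient cells. Socs3 was called higher in both, by 3.73 and 2.83. Of all genes 2.35% were called higher and 2.89% lower in these controls, and 3.87% and 4.61% in Dicer-deficient cells. From E14 to P0 3 of 9 factors fell, with Irf7 at group means of 201 and 20.6 (-3.32, SE 0.29, adjusted p = 1.69e-07 by limma). In the same comparison 18 of 28 other interferon-stimulated genes fell and none rose, beside 14% and 7.58% of all genes. From P0 to adult 5 of 7 receptors and kinases and 7 of 9 factors rose, and 13 of 28 other interferon-stimulated genes rose with 1 lower, Gbp9. Of all genes 17.2% were called higher and 21.6% lower in that comparison. In newborn Dicer-deficient cells Socs3 (1.88) and Gbp9 (1.74) were the pathway genes called, both higher, beside 1.04% of all genes called higher.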

How the data were processed

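Values were taken from 4 tables that the authors deposited, whose unit is signal: read counts multiplied by 1 factor per library. The submitters' processing notes name bcl2fastq, HISAT 0.1.5, SAMtools, HOMER, DESeq2 and the build mm9; the annotation and filters are not given in the sources used here. Whole reads were recovered from the deposited values in all 46 libraries (898451 to 4573063 reads, 100% of values whole). Differences were tested with limma 3.58.1 (R 4.3.3, trended variance) on log2(value + 1), separately in each table, for genes that reached a value of 1 in a number of libraries equal to the size of the smallest group, with Benjamini-Hochberg adjustment over all genes tested. Counts by edgeR 4.0.16 and DESeq2 1.42.0 on recovered reads, pseudocounts of 0.1 and 5, no filter, fits of only the groups compared and fits without each library were alternatives. The same limma fit was run on simulated data with known changes. It called 0% of 2-fold and 22.3% of 4-fold changes in the hippocampal LPS comparison of controls. In the total-brain interaction it called 6.38% and 53.8%, and from E14 to P0 59.4% and 93.9%. Hippocampal genotype comparisons were not simulated. A gene without a call may therefore still have changed.

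Named members were the 2 per role with the smallest p in the total-brain LPS comparison of controls, those called between genotypes (otherwise the 3 with the smallest p), and Adar, Eif2ak2 and Ifih1; other genes named were chosen after their values were seen. For pathway lists, up to 2 genes with the smallest p and Ifnb1 have values. Members and lists were chosen with earlier results of these data known. Promoter windows came from RefSeq on GRCm38.p6 and were matched by symbol; no coordinates of mm9 were used. Replicate numbers were checked for pairing and did not pair the libraries of the adult set or the developmental controls. In newborns pairing could not be settled.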

Additional observations from a re-analysis of the deposited data

Results flagged for a closer look

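In groups of 4 to 10 libraries, 17 of 132 tests found a library far from the rest of its group, measured by its gap to the nearest library as a share of the range. Chance flags about 1 in 20 such groups, and members that move together are not independent. P0 control library 4 stood far above the other 4 P0 controls for 9 genes. Ifi204 was 72.6 there (others 20.4 to 24.5) and Slfn2 was 216.5 (129 to 148). Usp18 was 7.08 (0 to 1.52), Ifitm3 31.3 (14.9 to 19.0) and Ly6a 13 (1.45 to 4.67). Gbp2 was 16.5 (6.84 to 9.33), Iigp1 2.95 (0 to 0.76), Rtp4 129 (18.7 to 35) and Ly6e 2942 (1935 to 2189). P0 control 1 had Oas3 at 1.45, with 0 in the others.

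Further libraries stood apart for 1 gene each. Gbp7 was 1387 in adult control 4 (993 to 1036 in the others). In total brain after LPS, Adar was 294.9 in Dicer-deficient library 36 (383 to 392) and Oas3 was 2.1 in control library 17 (21.6 to 22.8). Ifi35 was 220.1 in E14 library 3 (182 to 183). In developmental adults Iigp1 was 6.04 in library 3 (0.72 to 2.03), Rtp4 64.6 in library 1 (33.3 to 41.3) and Ifi27l2a 71.1 in library 2 (38.8 to 43.8).

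In 8 of the 22 members named by rule, the Dicer-deficient libraries lay all above P0 controls 1 to 3 in newborns. The same 8 had Dicer-deficient libraries all below the controls in at least 1 comparison of an adult set. The share of all genes with this pattern is not given, so the 8 have no background. Each hippocampal LPS group held only 2 libraries. P0 control 4, which was not in the newborn comparison, lay above 1 of the Dicer-deficient libraries for Ifi204, Oas2, Lgals3bp and Ly6e. The difference between these effects was not tested, since the tables were normalised separately. In log2 differences of Dicer-deficient minus control, Ifi204 was 1.77 in newborns and -1.84 in hippocampus after LPS, and Oas2 was 1.67 and -3.03. Usp18 was 2.58 and -1.42, and Ifi35 was 0.85 and -0.57 in the same comparisons. Isg15 was 1.23 in newborns and -1.77 in the adult set, where it had 2 to 7 reads per library. Lgals3bp was 0.80 in newborns, -1.61 in the adult set, and -0.18 and -2.11 in hippocampus at steady state and after LPS. Ly6e was 0.68 in newborns, -0.73 in the adult set, -0.81 in total brain at steady state and -0.38 in hippocampus at steady state. Ifi27l2a was 1.65 in newborns, and -0.94 and -3.74 in hippocampus at steady state and after LPS.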

How the results depend on the processing

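No named gene that limma called changed direction under any alternative run. Medians near 0 over the members did change sign without single libraries: they ran from -0.532 to 0.091 and from -0.33 to 0.194 between total-brain genotypes at steady state (all libraries -0.226) and after LPS, from -0.158 to 0.465 in the total-brain interaction (0.113) and from -0.161 to 0.243 between hippocampal genotypes at steady state (0.053). The hippocampal interaction median was -1.083, and -0.702 without LPS Dicer-deficient library 18. Counts of members called that moved by over 1.5 times are grouped here by alternative. The share of all genes called under the alternatives, or without single libraries, is not given, so these counts have no background. DESeq2 called 2 in the steady-state genotype comparison of total brain, 1 in its interaction, 25 and 11 in the hippocampal LPS comparisons of controls and Dicer-deficient cells, 2 and 2 in the hippocampal genotype comparisons, 1 in the hippocampal interaction and 3 in newborns. edgeR called 7 with TMM and 7 with RLE scaling in the adult set, and 3 and 5 in newborns. Fits of only the groups compared called 3 and 2 between total-brain genotypes at steady state and after LPS, and 2 after LPS in Dicer-deficient hippocampus; an interaction needs all 4 groups, so it had no such fit. In newborns a pseudocount of 5 called 4, no filter called 2 and all 5 P0 controls called 12. A pseudocount of 5 moved the median from E14 to P0 to -1.34. The cause of these changes was not tested. Across scalings the median over all genes moved by at most 0.1.

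Without each library in turn, counts ran from 3 to 6 in the adult set, 18 to 36 and 30 to 40 in the LPS comparisons of total-brain controls and Dicer-deficient cells, and 0 to 0 and 2 to 4 between genotypes at steady state and after LPS. They ran from 0 to 1 in the total-brain interaction, 0 to 5 and 2 to 6 in the hippocampal LPS comparisons, 0 to 1 and 0 to 3 between hippocampal genotypes and 0 to 0 in that interaction. In development they ran from 35 to 43 for P0 against E14, 14 to 23 for adult against P0 and 25 to 32 for adult against E14, and in newborns from 0 to 21. A lone library left in a hippocampal or newborn group was assumed to vary like the other groups.

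Replicate numbers did not pair the libraries of the adult set or the developmental controls. Deviations of same-numbered adult libraries correlated at -0.001, 0.067 and 0.043, and pairs in development ran from -0.207 to 0.258. In newborns the same-numbered pairs correlated at 0.21 and 0.146, and the other pairs ran from -0.21 to 0.116. The 2 newborn Dicer-deficient libraries deviate from their mean by equal and opposite amounts, so pairing could not be settled there. With the replicate number as a block, limma called 5 members in the adult set and 40, 15 and 28 in the 3 developmental comparisons. In newborns it called 4 with the block and 1 without it. Within total brain and within hippocampus the groups compared share no numbers, so no paired fit was possible there. Number 5 occurs once in each of these sets, which were not compared with each other. Low depth limits genes of a few reads, such as Ifnb1, Oas3, Iigp1, Usp18 at P0, and Isg15 and Ifitm3 in the adult set.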
